A study of Caenorhabditis elegans with 2 samples.

Results

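The regions described here are HPL-2 ChIP-seq candidates that lie inside the 2 piRNA gene clusters of chromosome IV of Caenorhabditis elegans. A region of the pooled candidate list was a member if its summit fell in chrIV:4500000-7000000 (cluster 1) or chrIV:13500000-17200000 (cluster 2) of the ce11 assembly. This rule gave 1827 members of 30000 candidates in all, with 759 in cluster 1 and 1068 in cluster 2. The 3472 candidates elsewhere on chromosome IV served for comparison. A candidate is a region that the authors passed into an irreproducible discovery rate (IDR) analysis, so the list holds background as well as strong regions. The stricter list that left that analysis is called the thresholded list below. It holds 857 regions, which are exactly the 857 candidates of highest signal in the pooled list.

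The study has 1 group of 2 libraries, labelled biological replicates 1 and 3, with no control library analysed here. The animals were starved L1 larvae of mixed sex, held without food after bleaching of the mothers, of strain YL474. All carried lin-35(n745) I and unc-119(ed3) III, the first in the gene of the worm retinoblastoma homologue. They also carried the array vrIs64, in which the ges-1 promoter, known to be active in the intestine, drives HPL-2 with GFP and FLAG tags beside an unc-119(+) rescue gene. Whole organisms were used, and the labels give the libraries a size range of 150 to 350. One label names hpl-2 as the antibody and another names eGFP-hpl-2, so which of them the antibody bound, the GFP tag or HPL-2, is not settled here. No wild type was analysed, so nothing below can be read against normal lin-35 function. Read depth is unknown, since the deposited lists hold signal values and no counts.

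piRNAs, called 21U-RNAs in worms, are short RNAs of the germline that guide the Piwi protein PRG-1 to foreign and repetitive transcripts. Most are made from tiny transcription units of their own, crowded into these clusters, and many units carry an upstream sequence motif that is needed for their transcription. piRNA targets can be silenced in the nucleus through methylation of histone H3 on lysine 9, and HPL-2, one of the worm's HP1 proteins, is known to bind such chromatin. In starved L1 larvae the germline is a pair of primordial germ cells, while the ges-1 promoter acts in the gut.

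Of the 42 members in the thresholded list, 5 had a summit within 250 bp of a piRNA gene, and the RNAs of their neighbouring genes are printed here to show what lay beside the strongest signal. Each is given 5′ to 3′ as the DNA of the RefSeq genome (WBcel235, the same assembly as ce11), with the first base in capitals. Of the 14714 piRNA genes annotated on chromosome IV, 96.2% begin with this T.

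21ur-5229, chrIV:5967089-5967109, + strand: Tataatcatcttcaattttcc

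21ur-13200, chrIV:16181035-16181055, - strand: Tggaaaattgaagagacgcag

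21ur-8889, chrIV:15571235-15571255, + strand: Tcgacggtttatgtttttttt

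21ur-4901, chrIV:15398544-15398564, + strand: Tcgtatcgttttacttacaat

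21ur-10970, chrIV:15398543-15398563, + strand: Ttcgtatcgttttacttacaa

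21ur-11261, chrIV:5364419-5364439, + strand: Taagagtaattggacaaaaac

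The genes 21ur-4901 and 21ur-10970 differ by a shift of 1 base and lay beside the same member. The commonest sequence of 8 bases at a fixed place before the piRNA genes of chromosome IV was CTGTTTCA, the core of the known upstream motif. It began 46 bases upstream of 1734 of the 14714 genes (11.8%), more than any other 8-base sequence at any other place. It was found between 21 and 60 bases upstream of 4932 of the 14204 cluster genes (34.7%). Of the 6 genes above only 21ur-8889 had it. Among the genes that held the summit of a named weaker member, it preceded 21ur-10289, 21ur-1060 and the overlapping pair 21ur-15565 and 21ur-5378. Upstream stretches of 30 bases are shown with the motif core in capitals, for the pair that of 21ur-5378.

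21ur-8889, chrIV:15571177-15571206, + strand: ctttttttttaCTGTTTCAccgaggcgatg

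21ur-10289, chrIV:5753772-5753801, + strand: acgatttttttCTGTTTCActaaattctga

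21ur-1060, chrIV:15238564-15238593, - strand: tgaaaaattttCTGTTTCAcagtagtttca

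21ur-5378, chrIV:13891335-13891364, - strand: agtgataactaCTGTTTCAtcatcttgtga

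The core began 45 bases upstream of 21ur-10289 and 47 bases upstream of the other three.

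The label of the clusters was checked against the annotation, which put 14204 of the 14714 piRNA genes of chromosome IV (96.5%) inside the limits. Cluster 2 was the denser, with 11388 genes or 3.08 per kb, against 2816 genes or 1.13 per kb in cluster 1. The rest of the chromosome held 510 piRNA genes, or 0.0452 per kb. Candidates did not follow this pattern. The pooled list held 294.7 candidates per Mb in the clusters and 307.4 per Mb in the rest of chromosome IV. The separate libraries gave 295 ± 3.42 per Mb in the clusters and 308.3 ± 3.19 per Mb in the rest (SD, n = 2). Both libraries were lower in the clusters, replicate 1 with 292.6 against 310.5 per Mb and replicate 3 with 297.4 against 306.0 per Mb. The difference was small, and in the pooled list most of it came from cluster 2. That cluster held 288.6 candidates per Mb in the pooled list. Cluster 1, with 303.6, was close to the 305.2 between the clusters and the 304.9 left of them. Cluster 2 was below the rest in both libraries, with 286.2 per Mb in replicate 1 and 287.8 in replicate 3. Cluster 1 had 302.0 in replicate 1, below the rest, but 311.6 in replicate 3, above it.

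The strongest candidates were spread less evenly. In the pooled list 42 of 1827 members were in the thresholded list (2.30%, 95% Wilson interval 1.71% to 3.09%), against 92 of 3472 in the rest of chromosome IV (2.65%, interval 2.17% to 3.24%). Over all 30000 candidates the share was 2.86%. These intervals cover counting error only and take each region as independent, although 309 of the members overlapped another member. The difference, clusters minus rest, was -0.351 percentage points in the pooled list and -0.676 ± 0.329 over the 2 libraries (SD, n = 2). Cluster 1 held 24 of them, or 3.16% of its candidates, and cluster 2 held 18, or 1.69%. When the top 857 candidates of each library were taken in the same way, replicate 1 placed 38 members among them (2.09%) against 89 in the rest (2.54%). Replicate 3 placed 35 members (1.90%) against 97 in the rest (2.81%). Per length, cluster 2 held 4.86 thresholded regions per Mb and cluster 1 held 9.60, with 7.23 between the clusters and 9.33 left of them. The lowest of these 4 values was that of the cluster with the most piRNA genes, in the pooled list and in both libraries. A shorter list, 0.5 times as long and holding 1.43% of all candidates, turned the order round, with 1.31% of members and 1.15% of the rest. A list 2 times as long, holding 5.71% of all candidates, kept it, with 3.83% of members and 5.44% of the rest. No test over samples is given, since with 2 libraries the smallest two-sided p of an exact sign-flip permutation test is 0.5.

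**Figure D1:**
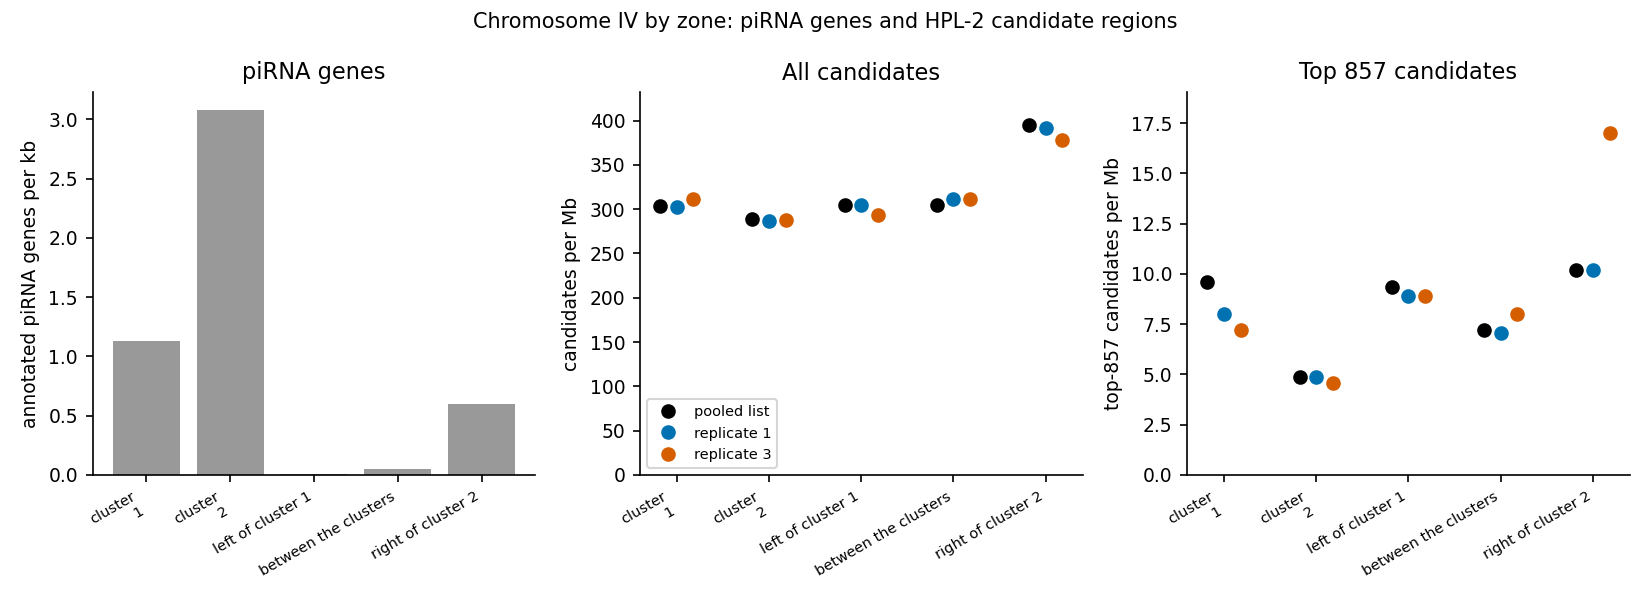
The left panel shows annotated piRNA genes per kb in 5 zones of chromosome IV, the middle panel candidates per Mb and the right panel top-857 candidates per Mb. Points are the pooled list and the 2 libraries. Cluster 2 has the most piRNA genes and the fewest top candidates per Mb, while all candidates differ little between the zones apart from the short end right of cluster 2.

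The median signal of the members was 10.97 in the clusters and 11.59 in the rest of chromosome IV in the pooled list. Signal is the authors' enrichment value for a region and its scale differs between lists, so levels are compared only within a list. In replicate 1 the medians were 9.32 in the clusters and 9.70 in the rest, and in replicate 3 they were 3.44 and 3.55 in the same order. Both libraries had the lower median in the clusters, by 0.05 ± 0.01 on the log2 scale (SD, n = 2).

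Most members lay close to a piRNA gene, as did much of the cluster sequence. A summit within 250 bp of a piRNA gene was found for 1018 members (55.7%, Wilson interval 53.4% to 58.0%), against 83 candidates in the rest of chromosome IV (2.39%). Sequence within 250 bp of a piRNA gene made up 50.9% of the clusters and 1.90% of the rest. The excess over the cluster sequence was thus 4.81 percentage points in the pooled list, and 3.63 ± 0.33 over the 2 libraries (SD, n = 2). In cluster 2 67.9% of the members lay that close, with 68.2% in replicate 1 and 68.5% in replicate 3, against 62.0% of the sequence. In cluster 1 the pooled list had 38.6% of the members that close, against 34.5% of the sequence. The separate libraries came nearer to that sequence share, with 34.8% in replicate 1 and 36.1% in replicate 3.

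Of the kinds of sequence compared, intergenic sequence had the excess in both clusters and in both libraries. Members were sorted by the place of the summit into gene starts (no more than 500 bp from where a protein-coding transcript begins), exons, introns and intergenic sequence. Of 769 intergenic members 71.1% were within 250 bp of a piRNA gene, as was 61.4% of intergenic cluster sequence. Of 442 intronic members 58.8% were that close, with 54.3% of intronic sequence. At gene starts the shares were 35.4% of 410 members and 35.6% of sequence, and in exons 66 of 206 members were that close, a share that differed from that of the sequence by less than 0.1 percentage points. The intergenic excess held in replicate 1 (71.5% of members) and in replicate 3 (71.3% of members). For introns, 55.8% of the members in replicate 1 and 56.3% in replicate 3 were that close. The intronic excess was absent from cluster 1 in both libraries, where 38.6% of members in replicate 1 and 43.1% in replicate 3 were that close, against 45.3% of intronic sequence.

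Around the 5′ ends of the 14204 cluster piRNA genes, the density of summits stayed within a narrow range. In steps of 100 bp out to 2000 bp on either side, the pooled list had between 285.1 and 366.1 summits per Mb. The highest value lay 301 to 400 bp upstream, and the 100 bp just before the genes had 321.7 per Mb. The place of the highest value differed between the libraries. In replicate 1 it lay 300 to 399 bp downstream (354.8 per Mb), and in replicate 3 farther upstream than in the pooled list (354.1 per Mb). A summit near several piRNA genes counts for each of them, so the steps are not independent. A candidate summit lay within 250 bp of 2314 of the 14204 cluster genes (16.3%). With the motif core upstream the share was 16.7% of 4932 genes, and without it 16.1% of 9272 genes, a difference smaller than the counting intervals of 15.7% to 17.8% and 15.3% to 16.8%.

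**Figure D2:**
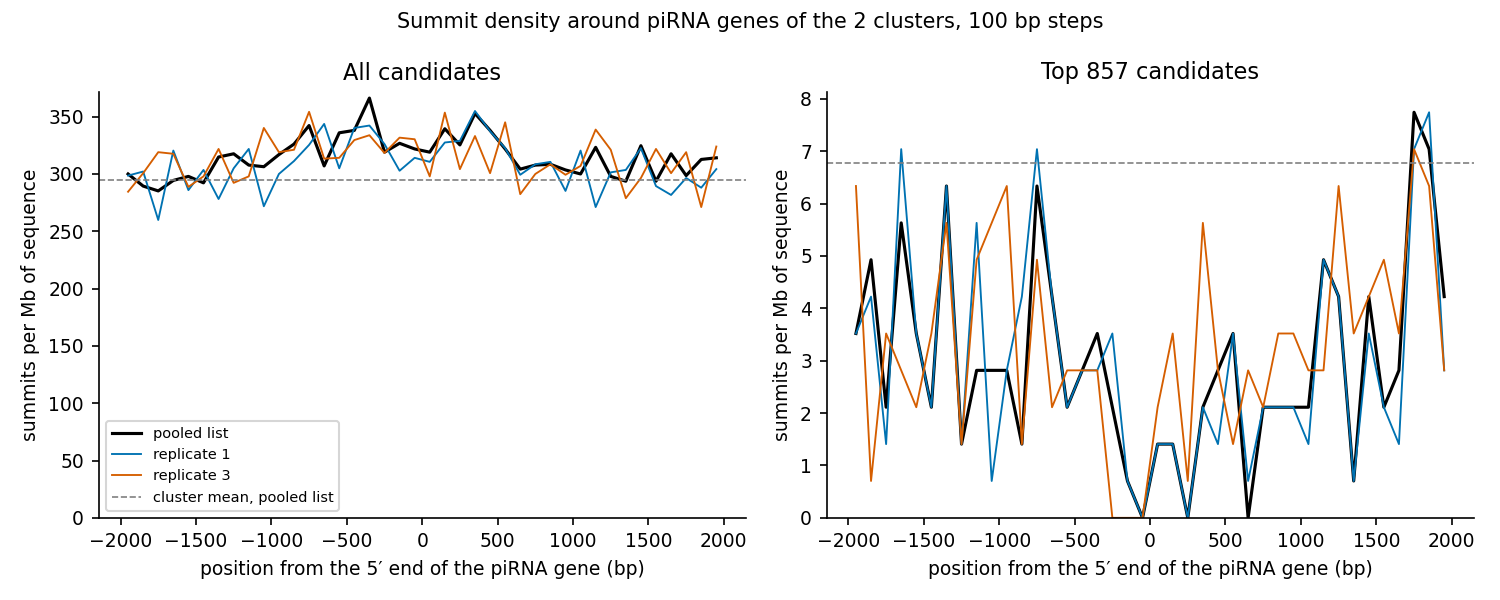
Summits per Mb of sequence (vertical axis) are plotted by position from the 5′ end of the cluster piRNA genes in steps of 100 bp, for all candidates on the left and for top-857 candidates on the right. Lines are the pooled list and the 2 libraries, and the dashed line is the mean of the clusters in the pooled list. All candidates vary between 285.1 and 366.1 per Mb in the pooled list, while the pooled top-857 candidates are at 0 in the 100 bp just upstream of the genes and in the steps that begin 200 and 600 bp downstream.

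The strong members, in contrast, were rare beside piRNA genes. Of the 1018 members within 250 bp of one, 5 were in the thresholded list (0.491%, Wilson interval 0.210% to 1.14%), against 37 of the 809 farther away (4.57%, interval 3.34% to 6.24%). The intervals do not overlap. In replicate 1 the shares among its top 857 were 5 of 985 (0.508%) near a piRNA gene and 33 of 829 (3.98%) farther away. In replicate 3 they were 6 of 1010 (0.594%) near a piRNA gene and 29 of 834 (3.48%) farther away. Both libraries were lower near piRNA genes, by 3.18 ± 0.42 percentage points (SD, n = 2). Of all 14204 cluster piRNA genes, 6 had a thresholded region within 250 bp. The bulk of the signal differed less. The median was 10.60 in near members and 11.62 in farther ones, with 9.03 and 9.69 in replicate 1 and 3.39 and 3.47 in replicate 3. The upper end differed more, since 46 of 1018 near members had a pooled signal of 20 or more (4.52%), against 116 of 809 farther ones (14.3%).

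The share varied with distance. It was 1 of 82 for summits inside a piRNA gene (1.22%), 1 of 539 at 1 to 100 bp (0.186%) and 3 of 397 at 101 to 250 bp (0.756%). At 251 to 500 bp it was 4 of 206 (1.94%), at 501 to 1000 bp 4 of 125 (3.20%), and at 1001 to 5000 bp 17 of 217 (7.83%). Beyond 5000 bp it was 12 of 261 (4.60%), so the highest share was not at the greatest distance. Both libraries also had their highest share at 1001 to 5000 bp, with 6.36% in replicate 1 and 5.69% in replicate 3.

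**Figure D3:**
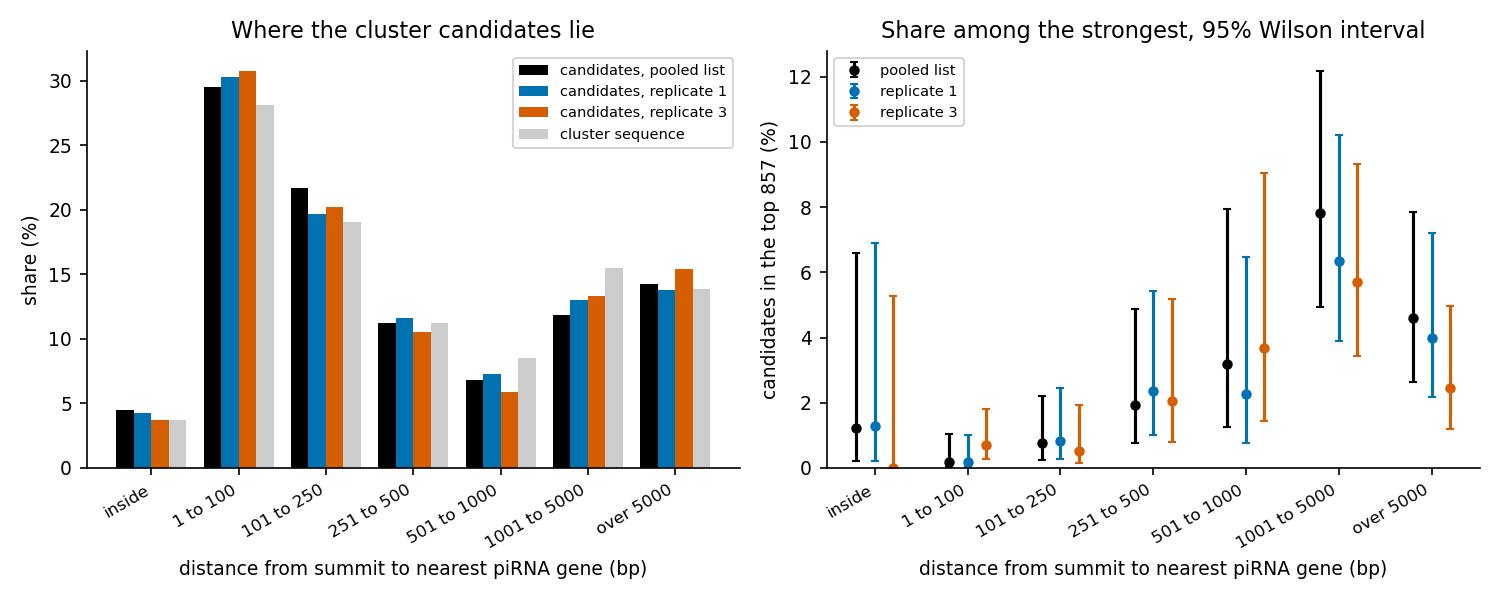
The left panel gives the share of candidates of each list, and of cluster sequence (grey), by the distance from the summit to the nearest piRNA gene. The right panel gives the share of those candidates in the top 857, with 95% Wilson intervals. Candidates follow the sequence closely, while the share in the top 857 is under 2% up to 250 bp and highest at 1001 to 5000 bp in all 3 lists.

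The difference was largest where the summit lay at a gene start. There 1 of 145 members near a piRNA gene was thresholded (0.690%, interval 0.122% to 3.80%), against 28 of 265 farther away (10.6%, interval 7.41% to 14.8%). In replicate 1 these shares were 0.690% near and 8.19% farther, and in replicate 3 they were 0 of 158 near (interval up to 2.37%) and 17 of 283 farther (6.01%). Away from gene starts 4 of 873 near members were thresholded (0.458%) and 9 of 544 farther members (1.65%), with intervals that overlap. In cluster 1 away from gene starts, replicate 3 had 3 of 223 near a piRNA gene (1.35%) and 4 of 324 farther (1.23%), so the direction did not hold there.

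Base composition moved with distance to piRNA genes. Within 100 bp of the summit the GC content averaged 30.1% ± 5.88 in the near members and 35.7% ± 6.89 in the farther ones (SD over members). Repeat-masked bases averaged 43.8% near piRNA genes and 35.9% farther away, and 14.2% of near members lay at gene starts, against 32.8% of farther ones. Thresholded members had a GC content of 42.8% ± 5.52, against 32.3% ± 6.76 in the other 1785 members. Among members with a GC content under 30%, none of 571 near and none of 171 farther members was thresholded. From 30% to under 35% the counts were 0 of 270 near and 2 of 225 farther, and from 35% to under 40% they were 1 of 104 near (0.962%) and 12 of 213 farther (5.63%). At 40% and above they were 4 of 73 near (5.48%) and 23 of 200 farther (11.5%). In the pooled list the near members thus had the lower share in each of the 3 classes that held any thresholded member, but 571 of the 1018 near members were in the class that held none. The counts in these classes were small and no intervals were computed for them. Intervals that do not overlap, as given above for all members, are therefore not shown at like GC content. The part of base composition in the difference was not tested beyond this split. In replicate 3 the class from 30% to under 35% had 1 of 210 near and 1 of 228 farther, so the direction did not hold there.

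**Figure D4:**
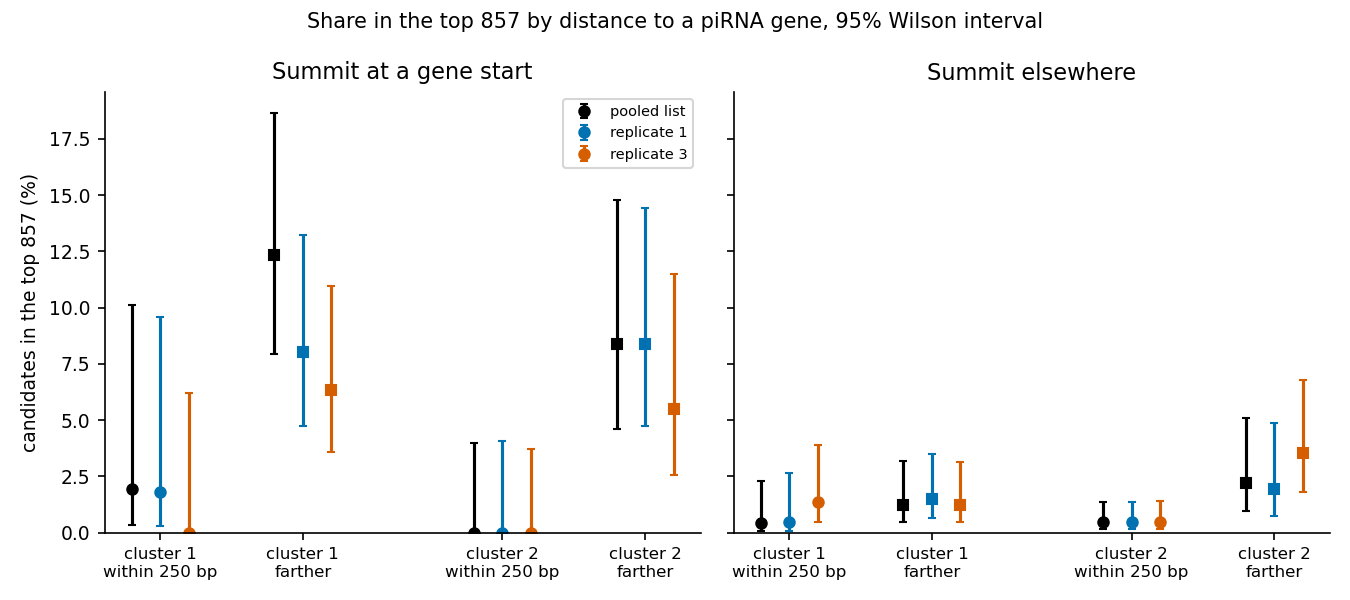
The share of candidates in the top 857 (vertical axis, with 95% Wilson intervals) is plotted for members within 250 bp of a piRNA gene and farther away in each cluster, for summits at a gene start on the left and elsewhere on the right. Colours are the pooled list and the 2 libraries. At gene starts all near values are below 2% and all farther values above 5%, while elsewhere all values are below 4%.

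The motif core was searched in both orientations within 100 bp of each summit. It was present in 284 of 1827 members (15.5%, interval 14.0% to 17.3%) and in 61 of 3472 candidates in the rest of chromosome IV (1.76%). Consecutive windows of the same 201 bp across the clusters held it in 14.6% of 30846 cases, and across the rest of the chromosome in 1.54% of 56187 cases. The members were thus close to the cluster sequence around them. Near piRNA genes 25.9% of members held the core, against 2.47% of those farther away. That core had been picked from sequence upstream of these same piRNA genes, so it was bound to be commoner near them. Windows of cluster sequence near and farther from piRNA genes were not counted apart, so this contrast says nothing about the candidates. Of the 42 thresholded members 3 held the core (7.14%, interval 2.46% to 19.0%).

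Members in the clusters were less often at gene starts than candidates elsewhere, with 22.4% in the clusters and 35.5% in the rest of chromosome IV. The sequence itself differed in the same direction but by less, with 18.7% in the clusters and 25.2% in the rest. Intergenic summits made up 42.1% of members and 26.0% of the rest, and intergenic sequence 44.3% of the clusters and 26.9% of the rest. The mean GC content was 32.6% ± 6.91 in the members and 35.2% ± 6.70 in the rest (SD over regions). Of the 42 thresholded members 29 were at gene starts, 3 in introns, 10 in intergenic sequence and none in exons. In the rest of chromosome IV 55 of 92 thresholded regions (59.8%) were at gene starts.

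At gene starts alone, 29 of 410 members were thresholded (7.07%), against 55 of 1234 in the rest of the chromosome (4.46%). That order did not hold in both libraries: replicate 1 gave 5.71% in the clusters and 4.19% in the rest, and replicate 3 gave 3.85% in the clusters and 5.17% in the rest. Outside gene starts the pooled shares were 0.917% in the clusters and 1.65% in the rest.

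The thresholded members had signals from 38.4 to 163, with a median of 52.3, and the authors' −log10 q was 3.23 for each of them. Of the 12 strongest members, 7 in cluster 1 and 10 in cluster 2 were at gene starts. The highest signal of cluster 1 was 163, with 134 in replicate 1 and 30.9 in replicate 3. It lay at chrIV:4749976-4750169 among the starts of rpl-20, a large ribosomal subunit protein gene, and Y17G9B.5. It ranked 22 of 30000 candidates in the pooled list, 17 in replicate 1 and 33 in replicate 3, and the nearest piRNA gene was 17643 bp away. The highest signal of cluster 2 was 139, with 111 in replicate 1 and 28.4 in replicate 3. It lay at chrIV:15471548-15471708, 128 bp from the start of ntl-11, which encodes a subunit of the CCR4-NOT complex that shortens mRNA tails. To show what the strongest summits sat on, 30 bases of the + strand are given for the 2 strongest members beside a piRNA gene and for these 2, with the summit base in capitals.

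beside 21ur-5229, chrIV:5967116-5967145: cattgcctgttacatAtttctcttctcaca

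inside 21ur-13200, chrIV:16181024-16181053: tccgagtttctctgcGtctcttcaattttc

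rpl-20 and Y17G9B.5, chrIV:4750046-4750075: ggcagtgctagttttGttgcgtgttctatt

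ntl-11, chrIV:15471608-15471637: agtacgagacgcagaGatcgttggcgcact

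Among the other gene starts of cluster 2 were those of 4 genes that make or handle RNA and protein. The start of mrps-7, a mitochondrial ribosomal protein gene, with that of Y57G11C.3 farther off, had a signal of 114, with 80.3 in replicate 1 and 31.1 in replicate 3. The start of rpl-29, another ribosomal protein gene, had 65.7, with 58.2 in replicate 1 and 6.50 in replicate 3. tsr-2, named for a yeast factor of ribosomal RNA processing, had 62.7, with 51.2 and 9.26 in the same order of libraries. hrpu-1, a homologue of the RNA-binding protein hnRNP U, had 54.1, with 43.4 and 10.8, and the ncRNA gene Y41E3.459 lay within 250 bp. In each of these the rank was better in replicate 1 than in replicate 3, apart from mrps-7, which ranked 66 in replicate 1 and 32 in replicate 3.

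The remaining starts were of other kinds. dld-1, which encodes the dihydrolipoamide dehydrogenase shared by mitochondrial enzyme complexes, lay with nspg-9 beside a signal of 92.8, with ranks of 92 in replicate 1 and 163 in replicate 3. The ncRNA gene LLC1.120 also lay within 250 bp of that summit. lin-66, a gene of developmental timing that acts on lin-28, had 68.2, with ranks of 154 and 1467. gtsf-1 had 52.3, with ranks of 295 and 3306. In flies and mice its relatives work with Piwi proteins, whereas the worm protein acts with RRF-3 in a different endogenous small RNA pathway. The start of Y73F8A.27 had 93.2, with a summit less than 1000 bp from that of the ntl-11 region. A member at chrIV:15646523-15646898, at the starts of a pair of genes without short names, had 100.9. An intron of Y57G11C.22 completed the 12, together with the region at 21ur-13200.

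In cluster 1 the gene starts after rpl-20 were also varied. The region at the starts of C17H12.2, the nearer, and vha-8, a subunit of the vacuolar proton pump, had 57.9, with 42.3 in replicate 1 and 14.9 in replicate 3. sar-1, the small GTPase of vesicle budding from the endoplasmic reticulum, had 52.2, with 40.6 and 12.1 in the same order. The region at the starts of F38A5.2, the nearer, and dnj-11, a DnaJ-type cochaperone gene, had 56.8, with 41.0 and 15.3. These 3 ranked between 323 and 680 in both libraries. The start of jmjd-1.2, a histone demethylase gene, lay with that of F29B9.11 beside a signal of 80.4, which ranked 90 in replicate 1 and 2217 in replicate 3. sqd-1, a gene of an hnRNP-type RNA-binding protein, had 55.7 and ranked 188 in replicate 1 but 20881 in replicate 3. W03F8.4 had 52.8, with ranks of 537 in replicate 1 and 513 in replicate 3.

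The remaining members of the 12 in cluster 1 were not at gene starts by the 500 bp rule. The summit nearest usp-4, a ubiquitin protease gene, lay 676 bp from its start and had a signal of 83.0, with ranks of 182 in replicate 1 and 74 in replicate 3. The ncRNA gene H34C03.18 lay within 250 bp of that summit. Near ipla-6, a phospholipase gene, the summit lay 714 bp away and had 65.3, with ranks of 170 and 2162. The summit 831 bp from dyci-1, the dynein intermediate chain gene, had 51.2, with ranks of 339 and 17013. The ncRNA genes C17H12.32 and C17H12.35 lay within 250 bp of it. An intron of fkh-7, a forkhead transcription factor gene, held 66.1, with ranks of 275 in replicate 1 and 170 in replicate 3. That summit was 299 bp from 21ur-14129 and had the motif core within 100 bp, so it lay just outside the distance that defined the near members.

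Just inside the threshold were the starts of zen-4, a mitotic kinesin gene, with a signal of 38.43, and of hda-6, a histone deacetylase gene, and F41H10.4, with 38.42. Just outside it were the starts of Y116A8C.9 and, farther from the summit, arf-6, a small GTPase gene, with 37.3, and of sec-61.A, a subunit of the protein channel of the endoplasmic reticulum, with 37.2. The snoRNA gene M03D4.78 lay within 250 bp of the summit at zen-4.

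The 5 thresholded members beside a piRNA gene did not share a setting. The strongest, at chrIV:5966943-5967318, had its summit 22 bp from 21ur-5229 and a signal of 62.7, with 41.3 in replicate 1 and 19.2 in replicate 3. It ranked 245 in the pooled list, 416 in replicate 1 and 157 in replicate 3. A tRNA gene (WBGene00022903) and the noncoding gene B0350.73 also lay within 250 bp, so the region had 3 annotated noncoding neighbours, and the signal cannot be assigned to one of them. The second, at chrIV:16180851-16181226, had its summit inside 21ur-13200 and a signal of 56.2, with 36.2 in replicate 1 and 19.5 in replicate 3. Its ranks were 335 in the pooled list, 568 and 149. No other noncoding gene lay within 250 bp, and the nearest protein-coding start was 3582 bp away.

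The other three ranked far lower in replicate 3. The member at chrIV:15570806-15571181, 241 bp from 21ur-8889, had a signal of 44.6 and ranked 784 in replicate 1 and 28302 in replicate 3. The member at chrIV:15398513-15398888, 137 bp from 21ur-4901, had 41.3 and ranked 682 in replicate 1 and 8675 in replicate 3. It held an uninterrupted repeat of 26 CT units, 52 bases long, that began 40 bp from the summit, and an ncRNA gene lay within 250 bp. The member at chrIV:5364118-5364493, 113 bp from 21ur-11261, had 38.4 and lay on the start of hda-6. It ranked 709 in replicate 1 and 9131 in replicate 3. Only the first pair, at 21ur-5229 and 21ur-13200, were therefore in the top 857 of both libraries.

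Regions at 21ur-5229 and 21ur-13200 also shared the longest run of identical bases among the 10 pairs of the 5 regions. The run was TCTTCAATTTTCC, of 13 bases, and the other pairs shared at most 10. It forms the end of 21ur-5229 as printed above, and its reverse complement lies at the start of 21ur-13200. It occurred in 2 of the 14714 piRNA genes of chromosome IV, these ones, and 14 times on the chromosome on either strand. The pair was looked at after its signals were known, and a shared run of this length is given as a description.

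Summits inside a piRNA gene were found for 82 members, and those below the one at 21ur-13200 were weak. The next had signals of 22.7 at 21ur-10289 in an intron of nhr-46, a nuclear hormone receptor gene, and 20.3 at 21ur-1060 in an intron of lgc-52, a ligand-gated ion channel gene. After them came 19.7 at 21ur-11215 in an intron of eps-8, an actin regulator gene, and 18.6 at the overlapping genes 21ur-15565 and 21ur-5378 near the start of lin-66. The region at 21ur-10289 ranked 3189 in replicate 1 and 1112 in replicate 3, and the one at 21ur-1060 ranked 14277 and 11078 in the same order. 21ur-15565 starts with G, whereas 21ur-5378, shifted by 3 bases, starts with T.

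The members near piRNA genes were also found less often in both libraries. A candidate of replicate 1 overlapped 1412 of the 1827 members (77.3%), and a candidate of replicate 3 overlapped 877 (48.0%). Both libraries had one at 616 members (33.7%), and neither at 154. Within 250 bp of a piRNA gene 292 of 1018 members were in both libraries (28.7%), against 324 of 809 farther away, and 38.4% of candidates in the rest of chromosome IV. Thresholded members were in both libraries in 42 of 42 cases, as were 89 of 92 thresholded regions in the rest of chromosome IV. The thresholded list was itself made from these 2 libraries, so this overlap is no independent check of it. In the top 857 of each library were 18 of the 42. The replicate 1 list alone would have placed 36 of the 42 in its top 857, and the replicate 3 list alone 23. Over the 616 members in both libraries the rank correlation of the signals was 0.343, with 0.218 near piRNA genes and 0.407 farther away. These values are descriptions over regions of the same 2 libraries. Some members share a target, since 309 of 1827 overlapped another member, among them 8 of the 42 in the thresholded list.

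**Figure D5:**
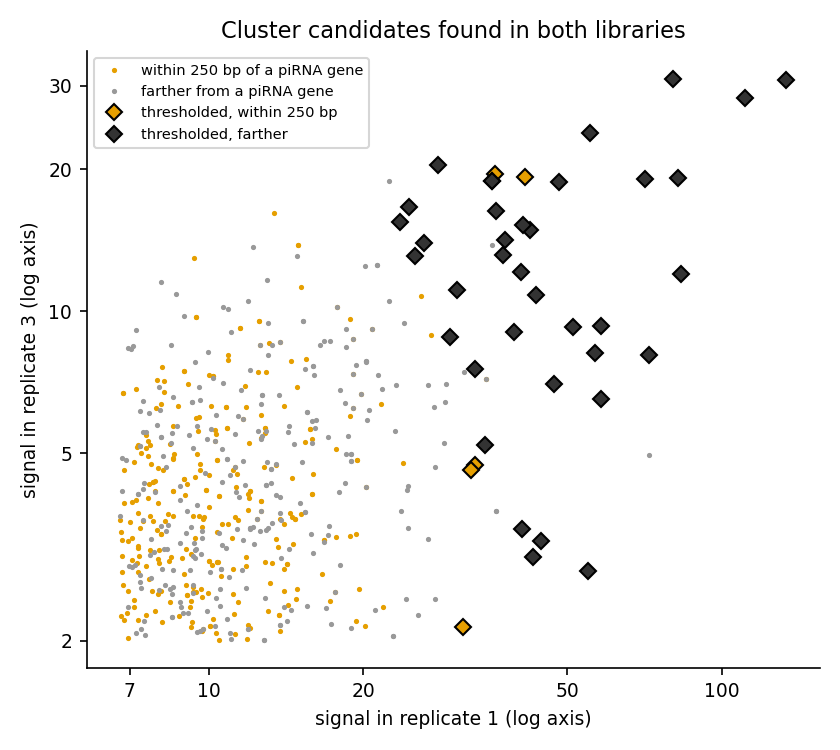
Signal in replicate 3 (vertical, log axis) is plotted against signal in replicate 1 (horizontal, log axis) for the 616 members with a candidate in both libraries. Orange points lie within 250 bp of a piRNA gene and grey points farther away, and diamonds are thresholded members. Of the 5 orange diamonds 2 are high in both libraries, and 3 have low signal in replicate 3.

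Other noncoding genes lay beside few members. A tRNA gene was within 250 bp of 27 members (1.48%, interval 1.02% to 2.14%) and of 24 candidates in the rest of chromosome IV (0.691%, interval 0.465% to 1.03%). Among thresholded members 2 of 42 were beside a tRNA gene, 2 beside a snoRNA gene, and 2 beside the microRNA gene cel-mir-52. Of all 1827 members 9 were beside a snoRNA gene (0.493%) and 5 beside a microRNA gene (0.274%). The pair at cel-mir-52, named after its values were seen, are overlapping regions with signals of 41.8 and 40.1 that match the same candidate in each library, so they count as 1 place. Genes annotated only as ncRNA were beside 9 of the 42 (21.4%, both regions at cel-mir-52 among them), against 87 of all 1827 members (4.76%). The rest of chromosome IV had the same order, with 13 of 92 thresholded regions (14.1%) and 180 of all 3472 (5.18%). A snoRNA gene was beside 8 of the 92 thresholded regions there (8.70%) and 22 of all 3472 (0.634%). A microRNA gene was beside 0 of those 92 and 8 of all 3472 (0.230%).

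The number of candidates hardly varied with the crowding of piRNA genes. The 124 bins of 50 kb were put into 4 groups by their number of piRNA genes. The group with the fewest (a median of 20 per bin) had 14.4 ± 6.96 candidates per bin, and the group with the most (a median of 205) had 14.9 ± 5.16 (SD over bins). Groups are given from the fewest piRNA genes to the most. Thresholded were 20 of 447, 11 of 490, 3 of 427 and 8 of 463 candidates, against 2.86% of all 30000. Mean GC content of the bins was 35.1%, 33.3%, 32.2% and 31.2% in the same order, and the share of sequence near gene starts 26.7%, 21.7%, 15.2% and 10.7%. The rank correlation across bins was 0.08 between piRNA genes and candidates, and -0.21 between piRNA genes and thresholded members. It was -0.74 between piRNA genes and GC content. Bins share libraries and neighbours, and these are descriptions.

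A list of 32 genes covered piRNA transcription, processing and binding, and also nuclear silencing and small RNA amplification. Of these 30 were in the annotation, and 13 of the 30 had a candidate within 500 bp of a 5′ end (43.3%), against 39.9% of all protein-coding genes. None of the 30 had a thresholded region, against 3.36% of all protein-coding genes. At that share a list of 30 genes would hold 1.01, so both counts were close to those of all genes. In piRNA transcription tofu-5 had a signal of 21.7 and snpc-4 had 17.4. In nuclear silencing lin-61, whose protein binds methylated histone H3, had 25.8, the highest of the list, and nrde-4 had 17.5. In the amplification of small RNAs, rde-8, a nuclease gene, had 20.1, mut-2, a nucleotidyltransferase gene, 18.0, and ego-1, an RNA-dependent RNA polymerase gene, 17.7. The other six genes with a candidate had signals from 8.34 at erh-2 to 13.3 at tofu-1. prg-1, hrde-1 and hpl-2 itself had no candidate at a start.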

How the data were processed

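HPL-2 ChIP-seq candidate lists of 2 libraries and of both pooled were analysed on ce11. Per the deposited file listings, each list is the input to an IDR analysis made with a control file, and the thresholded list is its output. Which aligner and peak caller were used, and how, is not given in the sources used here. The signal value of each region and its −log10 q are the authors' deposited values. Their scales differ between lists, so ranks were used across lists, and the top 857 by signal of each library stood in for a thresholded list. No depth is given.

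The summits were compared with Ensembl release 115 genes (15363 piRNA genes, at the same positions in RefSeq), and with the RefSeq sequence of WBcel235, read from the soft-masked genome. Protein-coding gene starts came before exons, introns and intergenic sequence. A library candidate matched a member by overlap. Python 3.11.15, numpy 2.4.6, pandas 2.3.3 and scipy 1.17.1 were used, and the counting was tested on simulated data. Wilson intervals have a level of 95%.

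Members and gene lists were chosen with earlier results of these data known. Named were the 12 members of highest signal in each cluster, thresholded members within 250 bp of a piRNA gene, members just inside and outside the threshold, the strongest with a summit inside a piRNA gene, and pathway genes with a candidate. Nothing says that the replicates came from separate cultures.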

Additional observations from a re-analysis of the deposited data

How the results depend on the processing

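Of 126 alternative values over 11 results, 117 kept the direction, 8 turned it round and 1 was a difference of 0. Of those not turned round, 83 moved from the main value by more than the SD of the 2 libraries and 35 stayed within it. Settings chosen after seeing the data gave 34 of the 126. Not all of the 126 could well have turned round. RefSeq holds the same piRNA genes as Ensembl, so its settings repeat the main values. Sequence within 250 bp of a piRNA gene made up 50.9% of the clusters and 1.90% of the rest. The motif was in 14.6% of cluster windows and 1.54% of those in the rest. The count of 117 is therefore no measure of how firm the results are. Differences below are clusters minus the rest of chromosome IV, in percentage points unless named otherwise. Leaving out a library gave -17.9 to -8.59 candidates per Mb, and for the thresholded share -0.909 to -0.443. It gave -0.058 to -0.044 for the median log2 signal, and 52.2 to 52.7 for the share near piRNA genes. For near members minus cluster sequence it gave 3.39 to 3.86. For near minus farther members it gave -3.47 to -2.88 for the thresholded share, and -0.10 to -0.033 for the log2 signal. It gave -10.6 to -9.10 for gene starts, -2.43 to -2.28 for GC content, 4.66 to 5.21 for masked bases and 12.5 to 14.4 for the motif.

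The thresholded share turned round in 7 settings. It was 0.512 for cluster 1 alone, 0.793 for cluster 1 against the sequence between the clusters, and 0.162 with the list 0.5 times as long. At gene starts it was 2.62, and 1.52 there in replicate 1. It was 1.70 at a GC content from 35% to under 40% and 2.44 at 40% and above. Both libraries had this order. From 35% to under 40%, replicate 1 had 3.42% of members and 2.31% of the rest, and replicate 3 4.23% and 2.82%. At 40% and above, replicate 1 had 8.25% and 6.38%, and replicate 3 6.69% and 5.86%. Under 35% the clusters had the lower share in both libraries. In other settings the difference was -0.964 for cluster 2 alone and -1.38 for cluster 2 against the sequence left of cluster 1. It was -1.61 with the list 2 times as long. It was -0.736 outside gene starts, -1.32 at gene starts in replicate 3, and -0.754 at a GC content from 30% to under 35%. With limits 0.25 Mb farther out it was -0.0722, and on ce10 -0.167. The cause was not tested. Masked bases turned round for cluster 1 alone, at -0.791.

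With limits 0.25 Mb farther out the values were -2.11 candidates per Mb, -0.064 for log2 signal, 46.5 near piRNA genes and 3.45 over the cluster sequence. They were -9.66 for gene starts, -2.06 for GC content, 3.80 for masked bases and 11.98 for the motif. With limits 0.25 Mb farther in they were 58.9 near piRNA genes, 5.31 over the sequence, -14.5 for gene starts, -2.78 for GC content and 15.8 for the motif. Cluster 1 alone gave -3.82 candidates per Mb, -0.050 for log2 signal, 36.2 near piRNA genes, 4.05 over the sequence, -9.45 for gene starts, -1.61 for GC content and 9.57 for the motif. Cluster 2 alone gave -0.11 for log2 signal, 65.5 near piRNA genes, 5.92 over the sequence, -15.7 for gene starts, -3.25 for GC content, 8.48 for masked bases and 16.8 for the motif. Cluster 1 against the sequence between the clusters gave -1.63 candidates per Mb, -0.037 for log2 signal, 36.0 near piRNA genes, -1.23 for GC content and 8.96 for the motif. Cluster 2 against the sequence left of cluster 1 gave -0.12 for log2 signal, 67.6 near piRNA genes, -10.6 for gene starts, -3.93 for GC content, 0.466 for masked bases and 17.8 for the motif.

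The log2 signal differed by -0.067 at gene starts and -0.064 outside them. A piRNA distance of 100 bp gave 33.1 for the share near piRNA genes and 2.13 over the sequence, and 500 bp gave 62.8 for the share. A gene start distance of 250 bp gave -8.71 and one of 1000 bp -14.5. The motif differed by 25.1 with 200 bp on either side of the summit, and by 23.7 with 1 mismatch allowed.

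For near minus farther members none of these settings turned the thresholded share round, although replicate 3 alone did so in cluster 1 outside gene starts and at a GC content from 30% to under 35%. It was 0 below a GC content of 30%, where no member was thresholded. It was -0.889 from 30% to under 35%, -4.67 from 35% to under 40%, and -6.02 at 40% and above. It was -2.52 with the list 0.5 times as long, -6.88 with the list 2 times as long, -2.99 for a distance of 100 bp and -4.74 for 500 bp. It was -1.20 outside gene starts and -9.88 at them, with -7.50 there in replicate 1 and -6.01 in replicate 3. In the pooled list the log2 signal of near minus farther members was -0.18 in cluster 1, -0.077 outside gene starts and -0.30 at them. In replicate 3 the near members had the higher median signal in cluster 1, with 3.54 near and 3.46 farther. They also had it outside gene starts, with 3.43 near and 3.39 farther. By GC content they had it in replicate 3 under 30%, with 3.39 near and 3.36 farther. From 30% to under 35% they had it in replicate 3 (3.41 near, 3.33 farther) and in replicate 1 (9.40 near, 9.33 farther). The direction did not hold in these cases. In the other GC classes of each library, and in every class of the pooled list, near members had the lower median.

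No replicate block between groups was fitted, since the study has 1 group, and regions were compared within each library. Density was not run on ce10, since the chromosome length of that assembly was not used here. RefSeq and Ensembl gave the same piRNA genes. Depth is unknown and no control library was analysed, so a weak candidate cannot be told apart from background.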
